A study of Mus musculus with 30 samples.

Results

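CD4+ T cells of mice primed in the presence of abatacept were set against CD4+ T cells of mice made tolerant by the oral route, so that 2 ways of restraining a T cell response could be compared on the same arrays. The comparison used the 3 CD4+ arrays labelled for abatacept and the 3 CD4+ arrays labelled for oral tolerance, 6 of the 30 arrays of the series. Every gene with 1 symbol in the platform annotation was followed, and 10322 of 17097 such genes were bright enough to test.

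All mice were DO11.10 RAG2-/- animals on the BALB/c background, 8 to 10 weeks old. The abatacept mice were immunised under the skin with 100 micrograms of ovalbumin (OVA) in complete Freund's adjuvant and given 10 mg/kg of abatacept. The tolerised mice drank OVA, at 50 mg/ml per the sample labels and at 50 mg/kg per the series' design text. The labels used here do not say whether the tolerised mice were immunised as well. The comparators, with 3 CD4+ arrays each, were mice primed in the same way that received 10 mg/kg of control IgG, mice primed with no antibody, and unimmunised mice. CD4+ cells were taken 10 days after immunisation by magnetic negative selection, with a stated purity over 90%. Their source was the axillary nodes in each of the 3 primed groups, the mesenteric nodes in tolerised mice, and nodes pooled with spleen in unimmunised mice. Tissue, route of antigen and treatment therefore changed together between abatacept and tolerised arrays, adjuvant possibly with them, and these cannot be told apart here. No label states whether the replicates of a group are different animals, and p-values therefore reflect the spread among these arrays, part or all of which may be technical.

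The DO11.10 receptor recognises a peptide of OVA, and loss of RAG2 stops rearrangement of the animal's own receptor genes, so that these mice lack B cells and carry T cells of 1 specificity. T cells need a signal from the antigen receptor and a second one from CD28, which binds CD80 and CD86 on antigen-presenting cells. Abatacept joins the outer part of CTLA-4, the inhibitory relative of CD28, to an antibody tail, and it occupies CD80 and CD86 so that CD28 cannot bind them. Antigen taken by mouth reaches the mesenteric nodes from the gut wall, where dendritic cells that make retinoic acid imprint gut homing receptors on T cells and favour regulatory T cells and anergy, a state in which T cells respond poorly to antigen.

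Each value is the authors' log2 level of a probe set after robust multi-array averaging (RMA), and a difference of 1 on this scale is a 2-fold difference. A gene was called at an adjusted p under 0.05, by limma with Benjamini-Hochberg adjustment over all 10322 genes, in a fit over the 15 CD4+ arrays. Array medians lay between 4.4555 and 4.544. A gene whose group mean lay near or below them cannot be told from background, and a fold against it is not exact.

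Abatacept and tolerised arrays differed widely. Of 10322 genes, 2408 were called (23.3%), 778 higher (7.54%) and 1630 lower (15.8%) in abatacept arrays. At least 2-fold, 72 were higher and 468 were lower, together 5.23%. For 3563 genes (34.5%) the 2 groups had no overlap between arrays, and the median difference over all genes, abatacept minus tolerised, was -0.04. The excess of lower calls depended on the scaling. After the arrays were quantile normalized once more, 1373 genes were higher and 1298 were lower, so that 51.4% of calls were higher against 32.3% as deposited, and the median over all genes was 0.04. With those settings the 2-fold counts were 107 higher and 417 lower. Without tolerised replicate 1, 488 genes were higher. A fit on the 6 arrays alone called 1107 genes, of which 1080 were among the 2408.

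**Figure D1:**
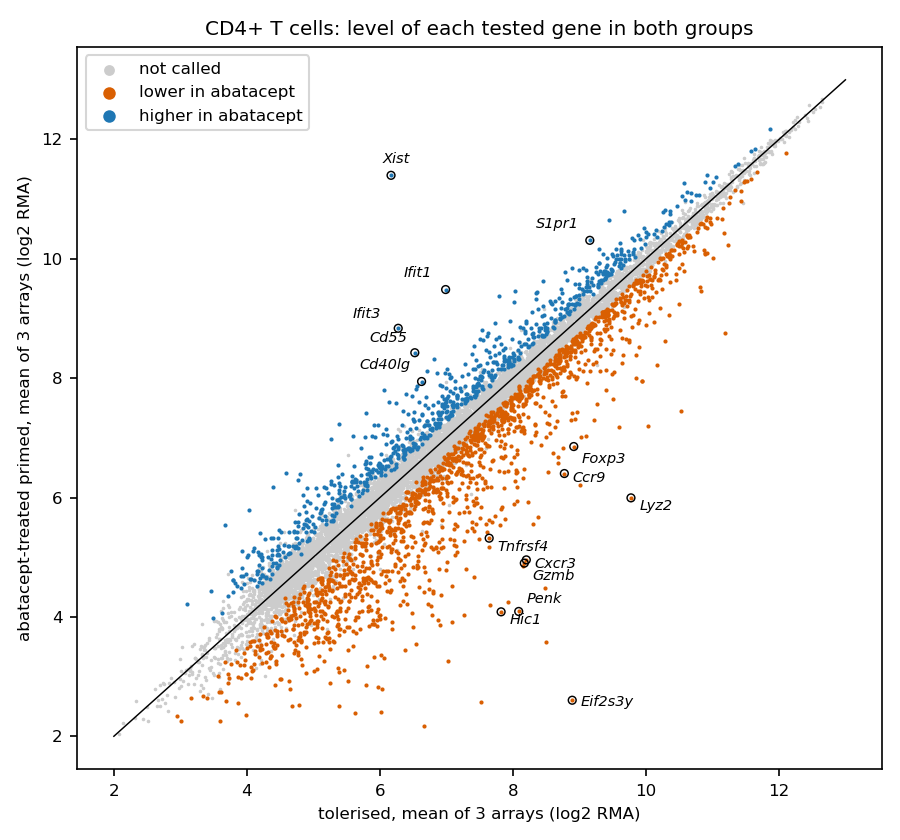
Mean log2 RMA level of each of the 10322 tested genes over the 3 tolerised arrays (x axis) and over the 3 abatacept arrays (y axis). Blue points were called higher and orange points lower in abatacept arrays, grey points were not called, and the line marks equal levels. Genes at least 2-fold apart lie more often below the line (468) than above it (72).

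Sex-linked transcripts split the groups. The sex of the animals is not given in the labels used here. The Y-linked gene Eif2s3y, which encodes a translation initiation factor subunit, read 2.41, 2.65 and 2.75 in abatacept and 8.88, 8.84 and 8.96 in tolerised arrays. Xist, the RNA of the inactive X chromosome, read 11.43, 11.34 and 11.43 against 7.28, 5.61 and 5.62. The abatacept arrays were thus low for the Y-linked gene and high for Xist, and the tolerised arrays the reverse, with no overlap. Of 7 Y-linked genes tested 6 were called, all lower. Among 305 X-linked genes 21 were higher and 45 lower, and among 9989 autosomal genes 754 were higher and 1577 lower (23.3% called). Sex-linked transcripts and group cannot be told apart. Control IgG and primed arrays, which came from the same nodes, differed in Eif2s3y (2.51 and 8.62) but were both high for Xist (11.23 and 10.15), so that this pair does not repeat the split between abatacept and tolerised arrays. Between them 9 genes were called (0.0872%), all lower with control IgG. These were Eif2s3y, Kdm5d, Orly, Ssty1, Ssty2 and Uty on the Y chromosome, Astx6 on the X chromosome, the chemokine gene Ccl5 (-1.67) and the transcription factor gene Jun (-0.93).

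The T cell label held on all 6 arrays. Cd3e, Cd3d and Cd4, which define these cells, were not called, with differences of 0.07, 0.20 and 0.23. Of 14 T cell markers 3 were higher (Cd3g, Cd247 and Trat1) and 2 lower (Zap70 and Ubash3a), with a median of 0.09. Trat1, an adaptor of the receptor complex, read 8.29, 8.08 and 7.90 in abatacept and 6.83, 6.87 and 7.24 in tolerised arrays, a 2.16-fold higher level (SE 0.12 log2, adjusted p = 2.7e-05). Zap70, the kinase that the receptor recruits, was 1.35-fold lower (adjusted p = 0.0076).

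Most markers of mast cells, macrophages and dendritic cells were higher in tolerised arrays. Of 9 mast cell and basophil markers tested 8 were lower in abatacept arrays (median -2.10). The mean level of all 10 such genes on the array was 3.99, 3.75 and 3.77 in abatacept and 6.01, 5.88 and 4.76 in tolerised arrays. Tolerised replicate 3 held the least and still exceeded every abatacept array. Cpa3, a mast cell protease, read 4.82, 3.51 and 3.79 against 7.83, 7.71 and 6.26, and Mcpt1, the protease of mast cells in the gut lining, read 2.27, 2.11 and 2.14 against 6.28, 8.29 and 5.41. Macrophage markers (7 of 12 lower, median -0.86) averaged 3.86, 3.89 and 3.79 against 5.58, 4.61 and 4.21 over the 13 genes on the array. Lyz2, the lysozyme of myeloid cells, read 7.05, 5.55 and 5.38 against 10.72, 9.78 and 8.83. Tolerised replicate 1 was the highest of the tolerised arrays in both lists.

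Dendritic cell markers (7 of 12 lower, median -1.29) averaged 5.68, 5.16 and 5.46 in abatacept and 6.96, 6.29 and 5.78 in tolerised arrays. The lower ones were the class II genes H2-Ab1, H2-Aa, H2-Eb1 and Cd74, with Itgax, Ccl22 and Fscn1. The 5 not called were Flt3 (-0.29), Zbtb46 (-0.05), Cd209a (0.29), Batf3 (-0.39) and Ccl17 (-0.31), and Xcr1 was not tested. Cd74, the chaperone of class II molecules, read 6.98, 6.07 and 6.32 against 8.99, 7.93 and 7.20. The dendritic cell chemokine Ccl22 read 6.16, 4.92 and 5.72 against 8.35, 7.77 and 6.95. Both genes were called, with no overlap between the groups, although some arrays of each group stood within 1 log2 unit of the other group. Of 4 innate lymphoid cell markers 3 were lower (Il1r1, Tmem176b and Kit, median -1.73), and Kit stands in the mast cell list too. Of 10 neutrophil markers 2 were lower, S100a8 (-3.17) and S100a9 (-2.69), with a median of -0.63. This share was near the 15.8% of all genes, but 6 of the 10 had an unadjusted p under 0.05 by limma. The list averaged 3.97, 3.84 and 3.72 in abatacept and 5.00, 5.32 and 4.10 in tolerised arrays, with no overlap. Its members Elane, Csf3r and Lcn2 were below the array medians on all 6 arrays. Natural killer cell markers gave 1 higher (Prf1) and 3 lower of 8 (Ncr1, Gzma and Eomes, median -0.54), plasmacytoid dendritic cell markers 1 lower of 5 (Spib, median -0.12) and B cell markers 1 lower of 3 (Cd79b, median -0.58). The B cell genes Ighm, Pax5, Blnk and Iglv1 were below the array medians on all 6 arrays, and Ms4a1 was above the median on tolerised replicate 1 alone. By limma, erythroid markers gave 0 calls of 6 (median 0.00) and epithelial markers 0 of 2 (median 0.10), with 0 members of either at an unadjusted p under 0.05, and stromal and endothelial markers 1 higher of 4 (Pecam1, median -0.16). Of the CD8 markers, Cd8b1 read 8.13, 8.22 and 8.03 against 6.79, 6.61 and 6.72 and was higher, and Cd8a was not called (1.08).

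In bulk samples fewer cells of a type and less RNA per cell cannot be told apart. The part of other cells in the differences given next was not tested. On the 6-array fit 1 of 12 dendritic cell markers and 1 of 12 macrophage markers stayed called. Unimmunised arrays carried far more macrophage, neutrophil and erythroid marker signal than any other group and entered the comparison through the filter and the shared estimate of the spread. Without them 2194 genes were called, 730 higher and 1464 lower.

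**Figure D2:**
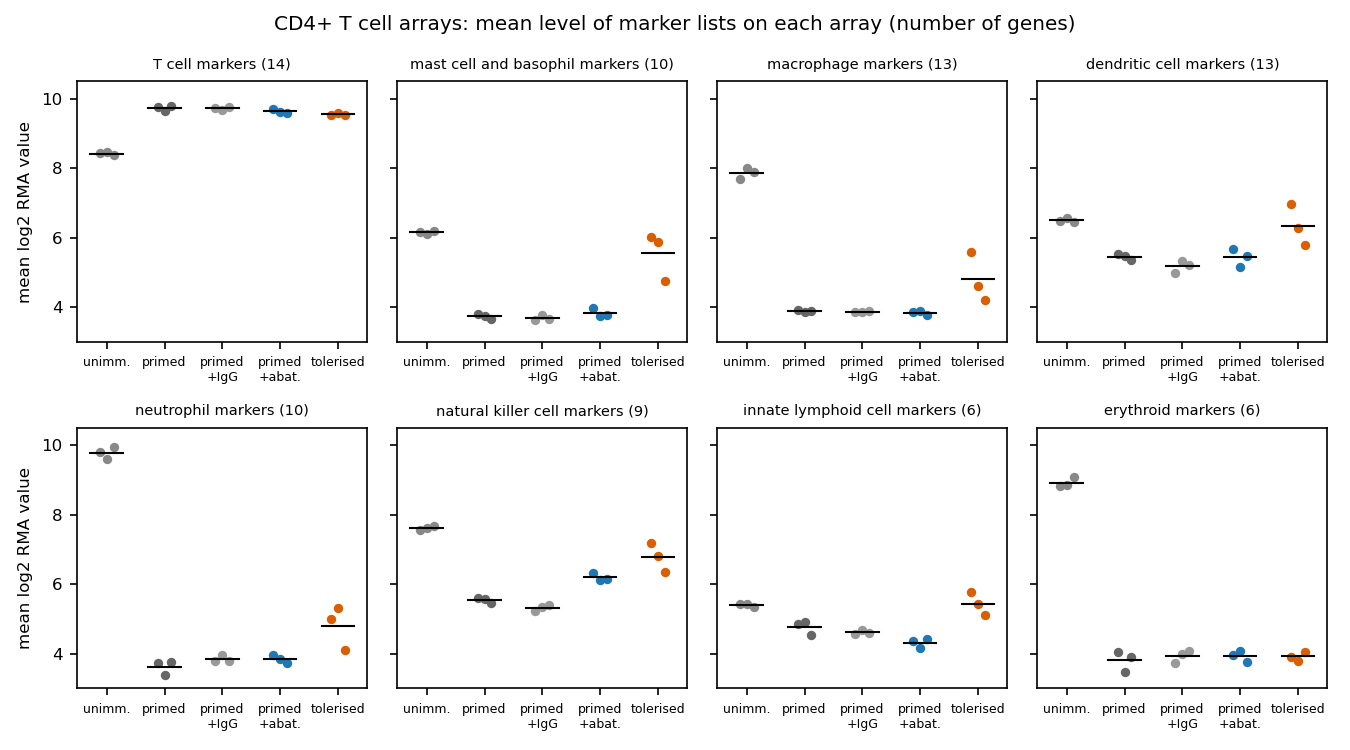
Mean log2 RMA value of 8 marker lists (number of genes on the array in parentheses) on each of the 15 CD4+ arrays, with the group mean as a line. Unimm. stands for unimmunised, IgG for control IgG and abat. for abatacept. Tolerised arrays (orange) lie above abatacept arrays (blue) for mast cell, macrophage, dendritic cell, neutrophil and innate lymphoid cell markers. For natural killer cell markers they also lie above, but the closest arrays read 6.342 and 6.335. T cell markers average 9.64 ± 0.05 in abatacept and 9.56 ± 0.03 in tolerised arrays (mean ± SD, n = 3).

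Gene lists of T cell biology are described next by role. List members given without the value of each array were mostly named after their values were seen, to account for the counts.

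Costimulatory receptors and their ligands were mostly lower in abatacept arrays. Of 14 tested 8 were lower and 2 higher, with a median of -0.77. Cd28 itself, the receptor that abatacept deprives of its ligands, read 10.38, 10.26 and 10.31 in abatacept and 10.20, 10.29 and 10.13 in tolerised arrays. These ranges overlapped, and the difference of 0.11 was not called (95% interval -0.08 to 0.30, adjusted p = 0.42). Icos, a relative of CD28 that T cells gain after activation, read 9.80, 9.28 and 9.29 against 10.87, 10.86 and 10.77. It was 2.60-fold lower (SE 0.13 log2, adjusted p = 1.1e-05), with every abatacept array below every tolerised one. Icos averaged 11.34 with control IgG, 11.503 in primed and 7.05 in unimmunised arrays, so the abatacept level stood between the unimmunised and the primed ones.

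Receptors and ligands of the tumour necrosis factor family were among the lower genes. Tnfrsf4, the costimulatory receptor OX40, read 5.39, 5.43 and 5.14 against 7.74, 7.54 and 7.64, a 5.01-fold lower level (SE 0.17 log2, adjusted p = 1.4e-06). Tnfsf11, the ligand RANKL, averaged 7.02 ± 0.42 against 9.02 ± 0.27, and Tnfsf14, the ligand LIGHT, averaged 5.31 ± 0.05 against 6.93 ± 0.06 (SD, n = 3). Both were called, at 3.998-fold and 3.09-fold lower. Cd40lg, by which helper T cells license dendritic cells and B cells, went the other way. It read 7.84, 7.92 and 8.08 in abatacept and 6.30, 6.93 and 6.65 in tolerised arrays, 2.49-fold higher (SE 0.17 log2, adjusted p = 1.1e-04). Its tolerised mean was below those of primed (8.499), control IgG (8.30) and unimmunised arrays (7.09). Cd27 was the other higher member (0.52).

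**Figure D3:**
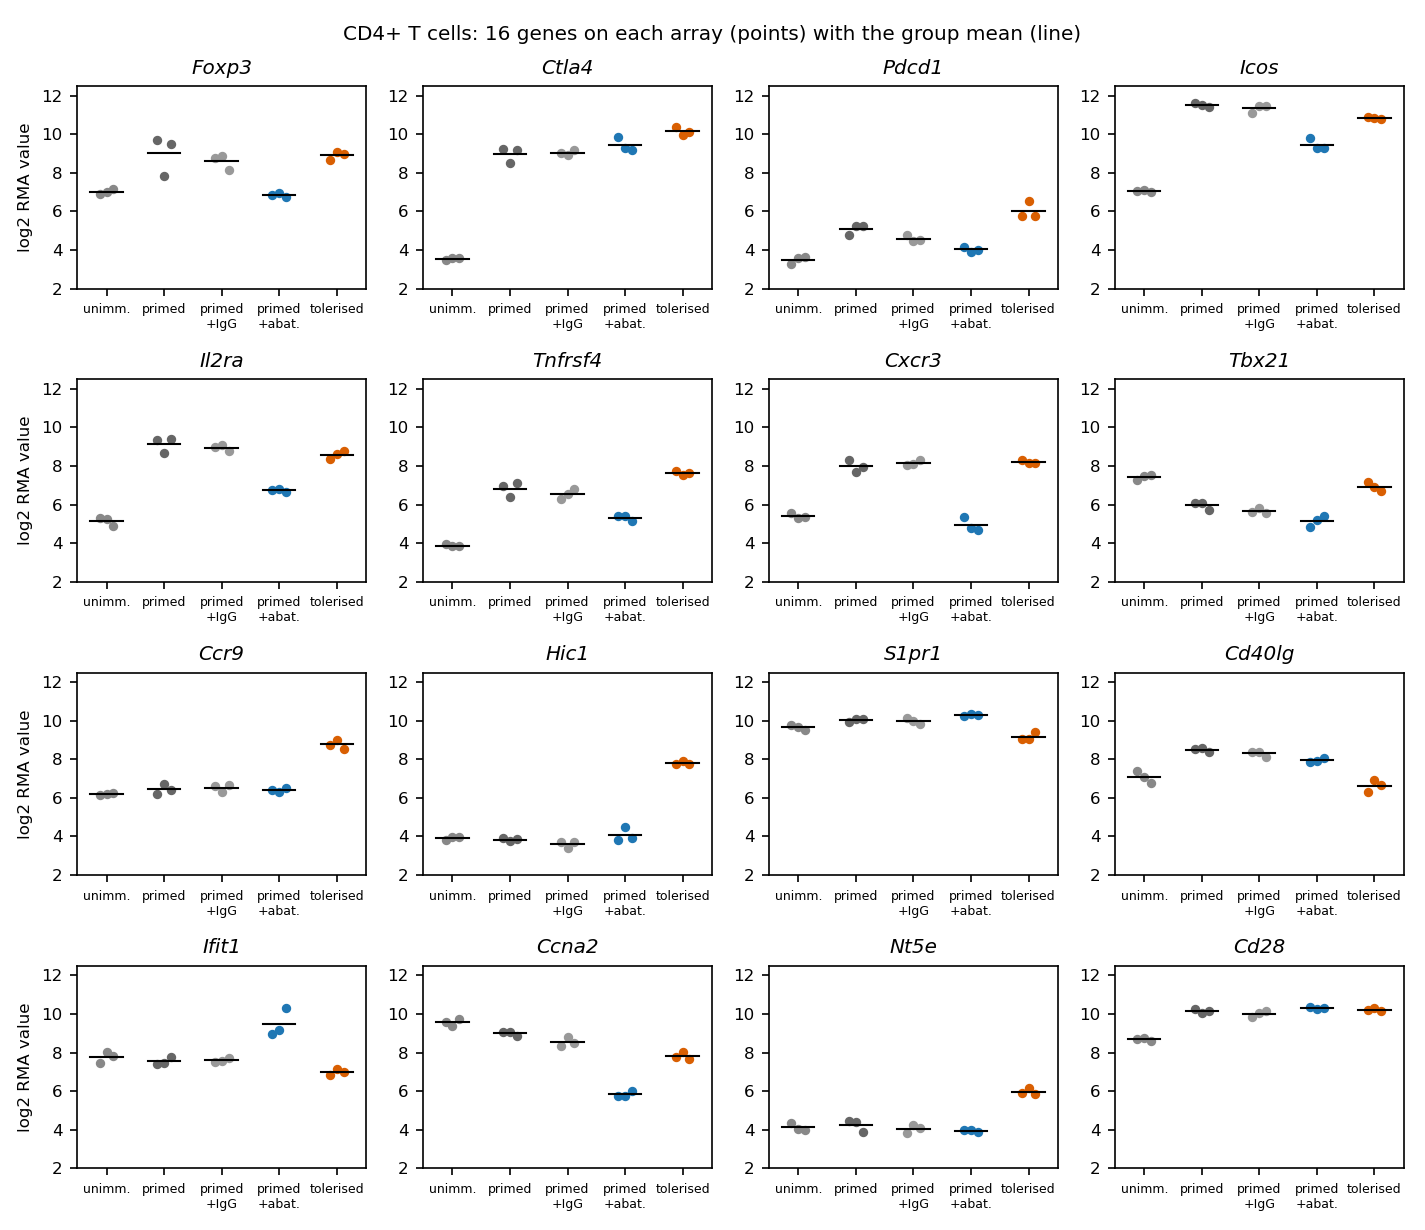
Log2 RMA value of 16 genes on each of the 15 CD4+ arrays (points, 3 per group) with the group mean (line). Unimm. stands for unimmunised, IgG for control IgG and abat. for abatacept. Foxp3, Icos, Il2ra, Tnfrsf4, Cxcr3 and Ccna2 are lower in abatacept (blue) than in tolerised arrays (orange), Ccr9, Hic1 and Nt5e are highest in tolerised arrays, Ifit1 is highest in abatacept arrays, and Cd28 overlaps.

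Inhibitory receptors gave 5 lower and 1 higher of 12, with a median of -0.71. Pdcd1, the receptor PD-1, read 4.16, 3.92 and 4.02 in abatacept, below the array medians, and 5.75, 6.52 and 5.75 in tolerised arrays (difference -1.97, SE 0.20, adjusted p = 1.5e-05). Ctla4, which binds the same ligands as CD28 and removes them from other cells, read 9.84, 9.29 and 9.20 against 10.36, 9.97 and 10.13. The groups came close but did not overlap, and the 1.63-fold lower level (adjusted p = 0.019) was no longer called without abatacept replicate 2, abatacept replicate 3 or tolerised replicate 1. Lag3, which binds class II molecules, read 5.75, 5.17 and 5.12 against 6.57, 6.98 and 5.94 and was 2.22-fold lower (adjusted p = 0.005). Klrg1, a receptor of differentiated effector and regulatory T cells, read 7.14, 7.42 and 7.01 against 9.98, 10.32 and 9.81, 7.19-fold lower (SE 0.30 log2, adjusted p = 2.2e-05). Pdcd1lg2 was the other lower member (-0.84) and Vsir the higher one (0.31). Without tolerised replicate 3 the count of lower members was 8, and on the 6 arrays alone it was 3.

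Of 18 genes induced directly by the antigen receptor 6 were lower and 0 higher (median -0.27), and 12 were not called. The lower ones were Il2ra, Batf, Irf8, Nfatc1, Egr1 and Egr2. Nr4a1, a transcription factor gene that follows receptor signal strength, read 7.21, 6.55 and 6.52 against 6.80, 7.41 and 6.67. The groups overlapped, and the difference of -0.20 was not called (95% interval -0.70 to 0.30, adjusted p = 0.58). Both group means, 6.76 and 6.96, were above those of control IgG (5.30), primed (5.31) and unimmunised arrays (5.08). Egr2, a transcription factor of both activation and anergy, read 10.37, 10.04 and 10.11 against 10.66, 10.74 and 10.46. The difference of -0.44 (adjusted p = 0.026) lost its call without any of abatacept replicates 2 and 3 and tolerised replicates 1 and 2. Egr2 too averaged higher in both groups than with control IgG (9.35), in primed (9.34) or in unimmunised arrays (6.76). Of the 10 immediate early genes, which cell handling can also induce, 4 were higher (Fos, Jun, Klf6 and Btg2) and 2 lower (Fosl2 and Ier3), with a median of 0.16.

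Genes linked to anergy were split. Of 23 tested 12 were lower and 4 higher (median -0.44), and on the 6 arrays alone 6 were lower. Nt5e, the ectoenzyme CD73 that makes adenosine and marks anergic T cells, read 3.98, 3.99 and 3.86 in abatacept, below the array medians, and 5.88, 6.15 and 5.83 in tolerised arrays (difference -2.01, SE 0.16, adjusted p = 2.7e-06). It averaged 4.05 with control IgG, 4.25 in primed and 4.13 in unimmunised arrays, so of the 5 groups the tolerised one stood apart. Rnf128, the ubiquitin ligase GRAIL, showed the same order, at 3.82, 3.64 and 3.81 against 5.27, 6.22 and 5.31 and with means between 3.84 and 4.49 in the other groups. Izumo1r, the folate receptor 4 of anergic and regulatory T cells, read 10.29, 10.09 and 9.67 against 10.97, 11.02 and 11.03. It was 1.99-fold lower (adjusted p = 2.7e-04), and its abatacept level lay near those of control IgG (10.06) and primed arrays (9.88), far above unimmunised ones (5.70). Dtx1, a Notch pathway regulator induced by NFAT, was 2.69-fold lower and Socs2, an inhibitor of cytokine signals, was lower too, at 4.44, 3.71 and 4.45 in abatacept, below the array medians, against 6.58, 6.36 and 5.97 in tolerised arrays. The higher members were Tob1 (0.69), a brake on division, Crtam (0.62), Dgka (0.50), a kinase that removes diacylglycerol, and Prkcq (0.47).

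Genes of regulatory T cells were lower in abatacept arrays. Of 16 tested 13 were lower and 0 higher, with a median of -1.48, and Nrp1 (-0.77), Tgfb1 and Prdm1 (-0.10) were not called. Foxp3, the lineage factor of these cells, read 6.86, 6.95 and 6.76 in abatacept and 8.69, 9.10 and 8.96 in tolerised arrays. The groups did not overlap, and the level was 4.17-fold lower (SE 0.37 log2, adjusted p = 0.0014). Foxp3 averaged 8.60 with control IgG, 9.02 in primed and 7.02 in unimmunised arrays, so the abatacept level was near the unimmunised one and the tolerised level near the primed one. Il2ra, the high affinity chain of the interleukin-2 receptor, read 6.75, 6.83 and 6.66 against 8.37, 8.64 and 8.79, 3.61-fold lower (SE 0.17 log2, adjusted p = 9.7e-06). Ebi3, a subunit of interleukin-27 and interleukin-35, read 4.75, 4.13 and 4.62 against 6.47, 6.53 and 6.76, with the abatacept mean near the array medians (difference -2.09, adjusted p = 2.5e-06). The factor Ikzf2 (-1.99), the ectoenzyme Entpd1 (-2.02) and the receptor Tnfrsf18 (-0.92) were also lower. Tgfb1, the cytokine gene, read 6.39, 6.37 and 6.21 against 6.71, 6.96 and 6.40 and was not called (difference -0.37, 95% interval -0.83 to 0.10). Il10 did not pass the filter on low values and was not tested.

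Th1 and cytotoxic genes were lower in 13 of 22 cases and higher in 1, with a median of -0.90. Cxcr3, the chemokine receptor of Th1 cells, read 5.36, 4.799 and 4.71 in abatacept and 8.32, 8.14 and 8.14 in tolerised arrays, 9.49-fold lower (SE 0.17 log2, adjusted p = 1.1e-07). Abatacept replicates 2 and 3 were near the array medians, so this fold is not exact. Control IgG (8.17) and primed arrays (8.00) were as high as tolerised ones, and unimmunised arrays (5.40) were near the abatacept level. Tbx21, the Th1 factor T-bet, read 4.86, 5.19 and 5.41 against 7.15, 6.90 and 6.72, 3.41-fold lower (adjusted p = 6.3e-06). Ifng, the Th1 cytokine gene, read 4.32, 4.76 and 4.50 against 6.03, 5.98 and 5.85 and was called, with abatacept values around the array medians. The tolerised mean of Ifng, 5.96, was above those of control IgG (3.94) and primed arrays (4.22) and below that of unimmunised arrays (6.25). Gzma, a granule protease also made by natural killer cells, read 8.69, 8.73 and 8.87 against 11.66, 11.14 and 10.76, 5.37-fold lower, and Gzmb was lower by a difference of -3.27. The natural killer cell list shares Gzma, Eomes and Prf1 with this one. Of its other tested members Ncr1 alone was called (-0.93). Ccl5, a chemokine gene of effector T cells, read 8.81, 8.33 and 8.79 against 10.32, 9.68 and 9.23, and it was 1 of the 9 genes that also differed between control IgG and primed arrays. Prf1, the pore-forming protein, was the 1 higher member (0.25, adjusted p = 0.04), a call that was lost in most alternatives, among them the fit without unimmunised arrays.

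The other effector programmes gave lower calls and no higher ones. All 4 Th2 genes tested were lower (median -1.25), and the cytokine genes Il4, Il5 and Il13 did not pass the filter. Gata3, the Th2 factor, read 6.09, 5.95 and 5.56 against 6.36, 6.62 and 6.60, 1.58-fold lower (adjusted p = 0.0024). Maf, which drives interleukin-4 and interleukin-10, read 2.46, 2.44 and 2.64 against 5.02, 4.87 and 4.13, with the abatacept arrays far below the array medians. All 6 Th17 genes tested were lower (median -1.84). Ccr6, the receptor of Th17 cells for CCL20, read 4.54, 4.65 and 4.07 against 6.83, 6.42 and 6.72, and Ahr, the receptor for aromatic ligands from diet and microbes, read 4.29, 3.47 and 3.87 against 5.73, 6.19 and 5.71. The abatacept means of both genes were below the array medians. Casp1, the caspase that matures interleukin-1 beta, read 4.23, 4.79 and 4.53 against 7.20, 7.03 and 7.04, with the abatacept mean near the array medians (difference -2.57, SE 0.14, adjusted p = 9.9e-08). Casp1 was also high with control IgG (7.49), in primed (7.66) and in unimmunised arrays (7.37), so the abatacept arrays stood apart from all the others. Il1r1 (-1.68) stood in this list and in that of innate lymphoid cells. Of 10 follicular helper genes 6 were lower and 0 higher (median -1.16). Bcl6, the factor of these cells, read 8.38, 8.00 and 7.84 against 8.31, 8.66 and 8.29, overlapped and was not called (difference -0.35, 95% interval -0.64 to -0.05, adjusted p = 0.085), while Cxcr5, the receptor that leads them to follicles, was lower (-2.18).

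Of 9 gut homing genes tested 6 were lower in abatacept arrays and 1 higher, with a median of -1.02. Ccr9, the receptor for the small intestinal chemokine CCL25, read 6.39, 6.30 and 6.52 in abatacept and 8.75, 9.03 and 8.55 in tolerised arrays, 5.17-fold lower (SE 0.15 log2, adjusted p = 4.1e-07). Its means in control IgG, primed and unimmunised arrays, 6.53, 6.44 and 6.21, were close to that of abatacept. Hic1, a repressor that retinoic acid induces in intestinal T cells, read 3.83, 4.51 and 3.91 against 7.76, 7.93 and 7.77 (difference -3.74, SE 0.15, adjusted p = 5.8e-09), and it lay below the array medians in each of the other 4 groups on average. For both genes the tolerised arrays stood well above the remaining 12 arrays. Itga4, the alpha chain of the integrin that binds the gut vascular addressin, read 8.10, 8.26 and 8.39 against 9.46, 9.74 and 9.73, 2.63-fold lower (adjusted p = 3.0e-06). Itgb7, its partner chain, read 10.14, 10.25 and 10.27 against 9.99, 10.16 and 10.02, overlapped and was not called (difference 0.17, 95% interval 0.00 to 0.33). Itgae, the alpha chain that anchors T cells to epithelium, read 4.44, 4.95 and 5.03 against 6.71, 7.59 and 6.34, 4.21-fold lower. Its abatacept level was near the array medians, so this fold is not exact. Rara, a receptor of retinoic acid, was the higher member (0.66).

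Genes of node homing and egress went both ways, and genes of naive T cells were higher. Of 14 homing and egress genes 4 were higher and 6 lower (median -0.30), and the 4 were S1pr1, S1pr4, Klf2 and Klf3. S1pr1, the receptor that lets T cells leave nodes along the sphingosine phosphate gradient, read 10.26, 10.35 and 10.32 in abatacept and 9.03, 9.05 and 9.39 in tolerised arrays, 2.23-fold higher (SE 0.11 log2, adjusted p = 1.0e-05). Klf2, the factor that drives S1pr1, read 8.88, 8.93 and 8.78 against 8.11, 8.13 and 8.06, 1.696-fold higher (adjusted p = 8.5e-05). The S1pr1 mean of tolerised arrays was the lowest of the 5 groups, the others being 9.99 with control IgG, 10.03 in primed and 9.66 in unimmunised arrays. The lower members included S100a4 (-1.31) and S100a6 (-1.67), calcium-binding proteins of memory cells. Of 10 naive T cell genes 6 were higher and 0 lower (median 0.46). Lef1, a factor of naive and stem-like T cells, read 9.30, 9.33 and 9.23 against 8.52, 8.66 and 8.72, 1.57-fold higher (adjusted p = 1.5e-04). Actn1 (0.66) and Txnip (0.88), a brake on glucose uptake, were higher too.

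Cytokine receptors and their inhibitors gave 10 lower and 2 higher of 21 (median -0.28). Il2rb, the signalling chain of the interleukin-2 and interleukin-15 receptors, read 8.03, 7.79 and 7.60 against 9.56, 9.43 and 9.19, 3.005-fold lower (adjusted p = 6.1e-06). Cish, which STAT5 induces and which restrains it, read 5.26, 5.22 and 5.41 against 7.20, 7.03 and 6.93, 3.37-fold lower (SE 0.14 log2, adjusted p = 2.6e-06). Il6ra, the interleukin-6 receptor, read 8.63, 8.74 and 8.88 against 7.47, 7.59 and 7.80 and was 2.19-fold higher (adjusted p = 1.2e-05). The Il6ra level of abatacept arrays (8.75) was close to those of control IgG (8.72) and primed arrays (8.71), and tolerised arrays stood below them. Ifnar1 was the other higher member (0.36). Socs3 read 4.95, 5.15 and 4.53 against 4.56, 5.11 and 5.27, overlapped and was not called (difference -0.11, 95% interval -0.57 to 0.36, adjusted p = 0.77), and its sign turned in several alternatives. The count of lower members was 5 without abatacept replicate 3.

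Genes of the type I interferon response were higher in abatacept arrays. Type I interferons signal to a transcription factor complex that binds a DNA element in the promoters of antiviral genes. Of 23 such genes tested 15 were higher and 0 lower, with a median of 0.76. Ifit1 and Ifit3, which bind viral RNA or the proteins that do, and Rsad2, an enzyme that makes a chain-ending nucleotide, are shown by their promoters because their levels were furthest apart and because each holds the core of that element. The windows run from 250 bases before to 50 bases after a transcript start given by RefSeq (GRCm38.p6), 5′ to 3′ on the gene's strand. For Ifit3 that start lies inside the annotated gene, which begins further upstream. Capitals mark matches to GAAA followed by any 2 bases and GAAA again, all of them in the opposite orientation.
Ifit1: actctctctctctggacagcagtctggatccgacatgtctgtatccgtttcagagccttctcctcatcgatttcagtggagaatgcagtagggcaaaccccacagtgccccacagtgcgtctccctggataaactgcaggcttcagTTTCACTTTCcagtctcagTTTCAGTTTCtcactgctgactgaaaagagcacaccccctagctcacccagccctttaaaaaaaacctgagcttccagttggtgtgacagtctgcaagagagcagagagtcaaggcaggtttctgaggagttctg
Ifit3: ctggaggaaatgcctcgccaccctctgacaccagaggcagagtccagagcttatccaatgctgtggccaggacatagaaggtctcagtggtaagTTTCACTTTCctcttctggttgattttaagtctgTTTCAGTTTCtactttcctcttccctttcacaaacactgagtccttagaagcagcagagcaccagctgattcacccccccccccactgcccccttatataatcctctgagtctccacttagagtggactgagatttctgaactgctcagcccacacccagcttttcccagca
Rsad2: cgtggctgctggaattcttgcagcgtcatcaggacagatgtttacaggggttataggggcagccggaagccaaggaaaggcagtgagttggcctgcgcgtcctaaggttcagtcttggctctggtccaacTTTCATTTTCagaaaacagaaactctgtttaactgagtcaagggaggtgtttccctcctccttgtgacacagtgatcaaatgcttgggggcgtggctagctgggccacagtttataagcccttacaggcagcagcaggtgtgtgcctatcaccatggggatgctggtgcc
The windows are chr19:34640639-34640938 (plus strand), chr19:34583279-34583578 (plus strand) and chr12:26456403-26456702 (minus strand). With the first base of that transcript at position 1, Ifit1 held matches that start at positions -104 and -85, Ifit3 held matches at -156 and -122, and Rsad2 held 1 match at -120.

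Of the 23 tested interferon genes 15 had a window, and 8 of the 15 (53.3%) held the motif on either strand, against 3.99% of the 27025 genes with a window. Of the 10 called members with a window 6 held it. A match is a description of these letters and not a bound site.

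The level of these genes varied among the abatacept arrays. Ifit1 read 8.98, 9.15 and 10.33 in abatacept and 6.83, 7.15 and 6.99 in tolerised arrays, 5.65-fold higher (SE 0.27 log2, adjusted p = 3.0e-05). Ifit3 read 7.96, 8.81 and 9.74 against 6.37, 6.17 and 6.29, 5.90-fold higher (SE 0.32 log2, adjusted p = 8.8e-05). Abatacept replicate 3 was the highest in both genes, and the lowest abatacept array still lay more than 1 log2 unit above every tolerised array. Rsad2 read 7.36, 6.89 and 9.16 against 6.48, 6.25 and 5.48; the groups did not overlap, and its call (adjusted p = 0.018) was lost without abatacept replicate 3, without tolerised replicate 3 and on the 6 arrays alone. Irf7, the factor that amplifies interferon production, read 6.497, 7.03 and 6.95 against 5.81, 5.42 and 5.93, 2.16-fold higher (adjusted p = 3.4e-04). The mean of all 25 genes of the list on the array was 6.97, 7.23 and 7.77 in abatacept and 6.62, 6.57 and 6.52 in tolerised arrays, and it lay between 6.46 and 6.67 with control IgG. Without abatacept replicate 3 the number of higher members was 9, and on the 6 arrays alone it was 7. Both settings left 0 members lower.

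Genes of the cell cycle were lower in abatacept arrays. Of 38 tested 33 were lower and 0 higher, with a median of -1.08. Promoters of many such genes carry CCAAT boxes, bound by NF-Y, and the element TTTGAA, the core of the site through which the DREAM complex holds these genes silent in resting cells. Ccnb2, a cyclin of mitosis, and Cdca8, a subunit of the chromosomal passenger complex, are shown because their windows hold both, with CCAAT and TTTGAA on either strand in capitals.
Ccnb2: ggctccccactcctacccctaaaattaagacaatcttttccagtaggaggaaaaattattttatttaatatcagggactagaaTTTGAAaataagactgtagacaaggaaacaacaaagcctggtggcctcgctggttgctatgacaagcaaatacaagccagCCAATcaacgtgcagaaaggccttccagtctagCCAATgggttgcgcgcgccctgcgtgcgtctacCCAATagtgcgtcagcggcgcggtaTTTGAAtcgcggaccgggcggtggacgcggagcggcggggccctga
Cdca8: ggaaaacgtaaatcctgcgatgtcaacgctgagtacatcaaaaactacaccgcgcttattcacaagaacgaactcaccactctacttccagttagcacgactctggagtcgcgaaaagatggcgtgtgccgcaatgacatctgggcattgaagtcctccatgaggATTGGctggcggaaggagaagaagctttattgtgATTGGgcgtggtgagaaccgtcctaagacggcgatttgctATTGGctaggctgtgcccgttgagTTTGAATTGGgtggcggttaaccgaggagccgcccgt
The windows are chr9:70421505-70421804 and chr4:124936868-124937167, both on the minus strand and again 5′ to 3′ on the gene's strand. Ccnb2 held 3 CCAAT matches, at positions -87, -54 and -21, and 2 TTTGAA matches, at -167 and 5. Cdca8 held 4 CCAAT matches, 1 of which shares a base with its TTTGAA match. CCAAT was present in 21 of the 30 cell cycle genes with a window (70.0%), against 41.06% of all 27025 genes with a window. Of the 30, 9 held 3 or more matches, against 3.88% of all. TTTGAA was present in 11 of the 30 (36.7%), against 20.23%.

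Levels of division genes were lowest in abatacept arrays. Ccna2, the cyclin of DNA synthesis and entry into mitosis, read 5.74, 5.76 and 6.03 in abatacept and 7.78, 8.04 and 7.67 in tolerised arrays, 3.97-fold lower (SE 0.14 log2, adjusted p = 1.1e-06). Its means were 8.56 with control IgG, 9.001 in primed and 9.58 in unimmunised arrays, where erythroid and myeloid markers were high as well. Abatacept arrays thus had the lowest mean of the 5 groups and tolerised arrays the next lowest. Rrm2, a ribonucleotide reductase subunit that supplies DNA precursors, read 6.13, 5.81 and 5.75 against 7.86, 8.30 and 7.90, 4.34-fold lower (adjusted p = 2.1e-06). Mki67, which encodes the Ki-67 antigen, read 8.89, 8.65 and 8.34 against 9.97, 10.51 and 10.40, 3.18-fold lower, and Cdk1, the mitotic kinase, 4.96, 4.79 and 4.71 against 6.18, 6.44 and 6.34, 2.83-fold lower. The Cdk1 level of abatacept arrays was near the array medians, so its fold is not exact. Cdca8 read 6.71, 6.59 and 5.99 against 8.34, 8.79 and 8.46. In none of these genes did the groups overlap. The 5 members not called were Ccne2, Pcna, Mcm2, E2f1 and Foxm1, and all 38 differences were negative. The mean of the 39 genes on the array was 6.06, 5.93 and 5.81 in abatacept, 6.92, 7.24 and 6.91 in tolerised and 7.31, 7.67 and 7.36 in control IgG arrays.

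**Figure D4:**
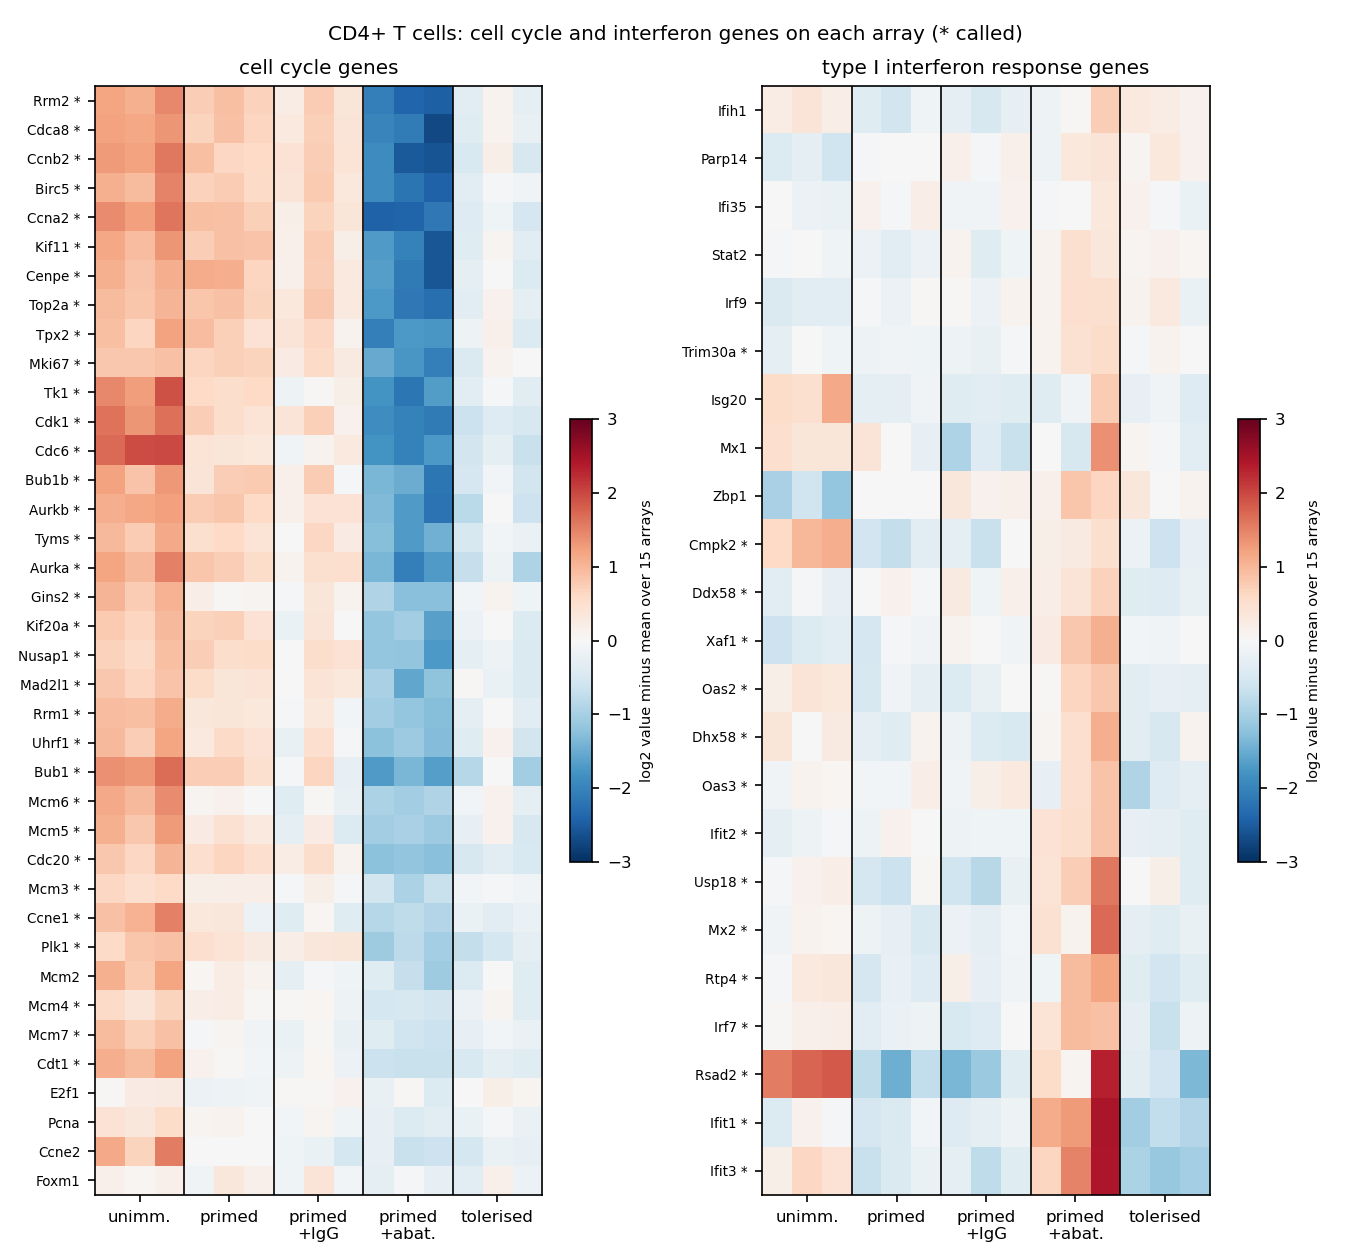
Log2 RMA value minus its mean over the 15 CD4+ arrays for the 38 tested cell cycle genes (left) and the 23 tested interferon response genes (right), with 3 arrays per group and the colour scale ending at 3 in either direction. An asterisk marks genes called between abatacept and tolerised arrays. Most cell cycle genes are lowest in abatacept arrays. Most called interferon genes are high there, above all on the third array, while Rsad2 and Cmpk2 are high in unimmunised arrays too.

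Of 12 cholesterol synthesis genes 6 were lower and 0 higher (median -0.39). Idi1, an isomerase of the pathway, read 8.11, 8.07 and 7.88 against 9.20, 9.19 and 8.53, 1.93-fold lower (adjusted p = 0.0013), and Insig1, which senses sterols, was 1.47-fold lower. Of 14 glycolysis genes 8 were lower and 1 higher (median -0.30). Tpi1, triosephosphate isomerase, read 7.49, 7.08 and 7.27 against 8.79, 8.78 and 8.41, 2.60-fold lower (SE 0.13 log2, adjusted p = 1.2e-05), and Hk2, which traps glucose in the cell, was 1.72-fold lower. The higher member was Pdk1, a kinase that keeps pyruvate out of mitochondria, at 7.03, 7.18 and 7.11 against 6.40, 6.21 and 6.61. Pdk1 was at its lowest mean of the 5 groups in tolerised arrays. Of 11 BCL2 family genes 5 were lower and 0 higher (median -0.30), among them the survival genes Bcl2, at 10.15, 9.996 and 10.14 against 11.03, 10.71 and 10.91, and Bcl2a1a, at 9.60, 9.12 and 9.03 against 10.60, 10.45 and 10.43. Bak1, Bad and Pmaip1, which promote death, were the remaining 3, and without abatacept replicate 3 the count was 2. Amino acid transport genes gave 1 higher (Slc3a2) and 1 lower (Slc38a1) of 8 (median 0.01). Heat shock genes gave 0 calls of 9 by limma (median -0.01), with 0 members at an unadjusted p under 0.05.

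**Figure D5:**
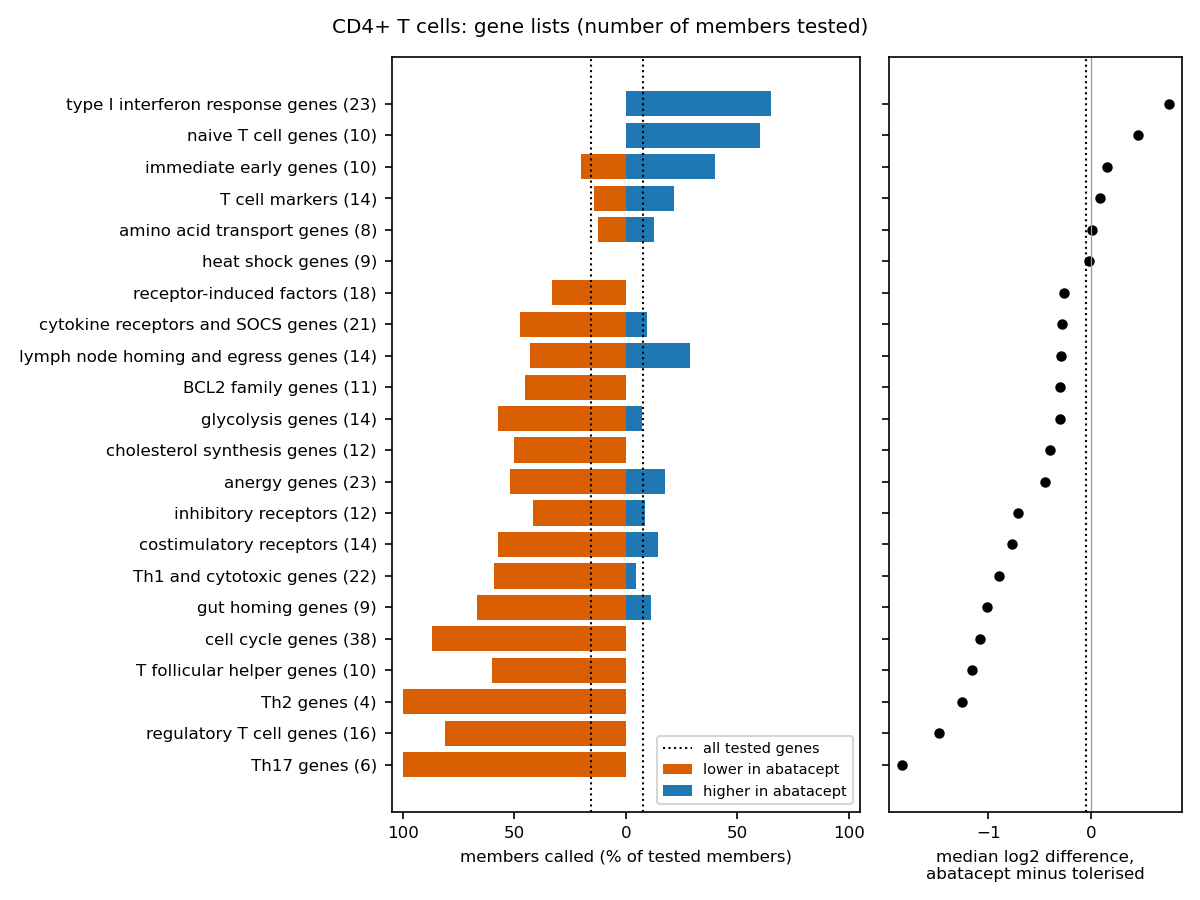
Share of tested members called lower (orange) or higher (blue) in abatacept arrays for each list of T cell biology, with the number tested in parentheses (left), and the median log2 difference of the list (right). Dotted lines mark the same values over all 10322 genes, 7.54% higher, 15.8% lower and a median of -0.04. Th17, Th2, cell cycle and regulatory T cell lists have the largest shares of lower members, and the interferon and naive T cell lists the largest shares of higher ones.

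The largest differences included genes outside these lists. Among lower genes whose arrays did not overlap was Penk, the precursor of enkephalin peptides, which regulatory T cells can make. It read 4.27, 4.02 and 3.99 in abatacept and 8.36, 8.51 and 7.39 in tolerised arrays (difference -3.996, SE 0.36, adjusted p = 7.1e-06). Il1r2, the decoy receptor of interleukin-1, read 3.22, 3.18 and 3.37 against 7.38, 7.13 and 6.54 (-3.76, adjusted p = 1.5e-07), and Dusp4, a phosphatase of MAP kinases, 4.67, 4.25 and 3.67 against 7.73, 8.17 and 7.05 (-3.46). In these 3 genes the abatacept means lay below the array medians, and control IgG means were higher (5.92, 6.14 and 6.19). Tgm2, a transglutaminase of macrophages and other cells, read 3.92, 4.24 and 4.57 against 8.89, 7.67 and 7.19, with tolerised replicate 1 highest, as for the macrophage markers. The rest of the 12 largest were Mcpt1, Lyz2, Hic1 and the Y-linked Eif2s3y, Kdm5d, Ssty2, Orly and Ssty1.

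Besides Xist and the interferon genes, the 12 largest higher genes held Cd55, which protects cells from complement. It read 8.23, 8.57 and 8.48 in abatacept and 6.51, 6.76 and 6.30 in tolerised arrays, 3.74-fold higher (SE 0.18 log2, adjusted p = 9.1e-06). Vipr1, a receptor of vasoactive intestinal peptide, read 5.37, 5.62 and 5.62 against 3.36, 3.62 and 4.04, with the tolerised arrays below the array medians. Pxylp1, a xylose phosphatase of proteoglycan synthesis, read 7.30, 7.22 and 7.15 against 5.16, 5.38 and 5.61, 3.58-fold higher (adjusted p = 8.1e-07). Sp6, a zinc finger factor, read 6.98, 7.01 and 6.95 against 5.29, 5.14 and 5.35, 3.30-fold higher (adjusted p = 1.9e-05). For Sp6, Pxylp1 and Vipr1 the abatacept means were close to the control IgG means (7.05, 7.14 and 5.48), and tolerised arrays were the ones that stood lower. Pdlim4 (1.83), Dapk1 (1.78), a kinase of cell death, Ifi213 (1.76) and Xkrx (1.63) completed the set.

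Each treatment was also set against its own primed comparator, abatacept against control IgG and tolerised against primed, in comparisons that share no arrays with each other. Abatacept minus control IgG called 1722 genes (16.7%), 344 higher (3.33%) and 1378 lower (13.4%). Tolerised minus primed called 1514 (14.7%), 644 higher (6.24%) and 870 lower (8.43%), with tissue changing in this comparison and not in the first. Cell cycle genes were lower in both, 35 of 38 with abatacept (median -1.59) and 26 of 38 with oral tolerance (median -0.81). Regulatory T cell genes gave 0 higher and 7 lower of 16 with abatacept (median -0.77), and 6 higher and 2 lower with oral tolerance (median 0.34). Interferon genes gave 13 higher of 23 with abatacept (median 0.69), and 0 calls by limma with oral tolerance (median -0.02), where 5 had an unadjusted p under 0.05. Th1 and cytotoxic genes gave 5 higher and 8 lower of 22 with abatacept, and 11 higher and 2 lower with oral tolerance.

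The difference between these 2 effects was tested as a contrast of the 4 groups. It called 825 of 10322 genes (7.99%), 261 higher (2.53%) and 564 lower (5.46%) in the abatacept effect. Without tolerised replicate 3 it called 853 lower genes, and without control IgG replicate 2 or primed replicate 2 it called 170 and 167 higher ones. Of the lists, it called 10 of 16 regulatory T cell genes, 18 of 38 cell cycle genes, 8 of 22 Th1 and cytotoxic genes and all 6 Th17 genes, each of them lower, and 5 of 23 interferon genes, all higher. Cxcr3 changed by -3.21 with abatacept and by 0.21 with oral tolerance, a difference of -3.42 (SE 0.25, adjusted p = 1.2e-05). Hic1 changed by 0.48 and 3.98 (difference -3.50, adjusted p = 3.3e-06), and Ccr9 by -0.13 and 2.33 (difference -2.45, adjusted p = 3.1e-05). The larger change was thus that with abatacept in Cxcr3 and that with oral tolerance in Hic1 and Ccr9. Ifit1 changed by 1.89 and -0.55 (difference 2.44, adjusted p = 0.002), and Ccna2 by -2.72 and -1.17 (difference -1.55, adjusted p = 5.3e-04). Foxp3 changed by -1.74 and -0.10, and its difference of -1.64 was not called (SE 0.52, adjusted p = 0.071), with primed arrays at 9.71, 7.83 and 9.51. The Y-linked genes Eif2s3y, Kdm5d and Uty were not called in this contrast, and Xist was (4.16, adjusted p = 8.8e-04).

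CD11c+ cells of the same treatments, a fraction enriched for dendritic cells, came from pooled nodes and spleen in both groups, and both were low for Eif2s3y (2.53 and 2.62). There abatacept minus tolerised called 3824 of 10203 genes (37.5%), 1690 higher (16.6%) and 2134 lower (20.9%). The difference between the cell types was called for 2991 of 10838 genes (27.6%), 1248 with the higher effect in CD4+ cells (11.5%) and 1743 with the lower (16.1%). Of 9731 genes tested in both, 388 were called in opposite directions with a called difference, 116 of them higher in CD4+ and lower in CD11c+ cells and 272 the reverse. Klf2 was higher under abatacept in CD4+ cells (0.76) and lower in CD11c+ cells (-0.65), where it read 7.03, 6.86 and 7.03 against 7.73, 7.42 and 7.72. Ebi3 was lower in CD4+ cells (-2.09) and higher in CD11c+ cells (0.50), where it read 8.44, 8.30 and 7.98 against 7.76, 7.69 and 7.75. The complement gene C1qa and the efferocytosis receptor Mertk, both made by macrophages, were lower under abatacept in CD4+ arrays (-1.64 and -0.90) and higher in CD11c+ arrays (1.56 and 1.64). Their levels in CD4+ abatacept arrays, 3.19 and 3.16, lay below the array medians, and in CD11c+ abatacept arrays they were 10.92 and 10.82. Mertk read 4.79, 3.79 and 3.60 in tolerised CD4+ arrays, near or below the array medians too. Its CD4+ difference therefore cannot be told from background. Maf, the factor named above, was lower in CD4+ cells (-2.16) and higher in CD11c+ cells (1.99).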

How the data were processed

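Per the labels, each array was made from 50 ng of RNA, amplified and tagged with biotin. The authors deposited log2 values made with RMA, 1 for each probe set on each array, per the submitters' processing notes. No version of RMA is given in the sources used here. Values ran from 1.667 to 13.242 over 30 arrays. The number of arrays limits the precision. Correlations between arrays of a CD4+ group lay between 0.983 and 0.994 over all probe sets. The labels name no batch, so none was tested. Scanner files were not used here.

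The platform annotation gave 1 gene symbol for 28898 of 45118 probe sets, several for 551 and none for 15669. Chromosomes came from the RefSeq gene table (GRCm38.p6), which held the Entrez IDs of 28689, and 0 symbols were updated. For each of 17097 genes the probe set brightest on average over the 30 arrays was taken. A gene was tested if it exceeded the median of 3 or more of the 15 CD4+ arrays, and 6775 did not. Tests were made in limma 3.58.1 under R 4.3.3 (lmFit, then eBayes, two-sided, 10 residual degrees of freedom), which also gave the contrast of 4 groups and the difference between cell types over 30 arrays. On simulated data for abatacept against tolerised (10322 genes) the procedure found 48%, 90%, 98% and 92% of the genes given log2 changes of 0.5, 1, 2 and -1, and of 169 calls 2.96% were false. The simulation gave each gene independent noise around 1 mean for all 15 arrays and changed 200 genes, far fewer than were called here. Its share of false calls is therefore no estimate for the real calls.

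The comparison and the lists were chosen with earlier results of these data known. Lists were described by counts and medians, with no set test. Genes named by rule were the 12 largest rises and 12 largest falls among called genes whose arrays did not overlap and whose higher mean exceeded the array median, at most 4 called members of each list with the smallest adjusted p, a fixed set of T cell genes, and the 5 largest each way for the other contrasts. Further list members were named after their values were seen. Replicate numbers were not used to pair the samples. Deviations of same-numbered abatacept and tolerised arrays correlated at 0.045, -0.052 and 0.027. Over all pairs of CD4+ groups the correlations were -0.23 to 0.13 for same-numbered arrays and -0.18 to 0.21 for the others. With 3 arrays a group these values cannot show whether the numbers mark a shared source. Alternatives were other sets of arrays, filters and probe set rules, array weights, a further quantile normalization, a block for the replicate number, and leaving out each array. Promoter windows came from RefSeq (GRCm38.p6) and matched 15 of 23 interferon and 30 of 38 cell cycle genes by symbol. Plots were made in Python 3.11.15 with matplotlib 3.10.9.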

Additional observations from a re-analysis of the deposited data

Results flagged for a closer look

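Each result here is a gene whose difference between abatacept and tolerised arrays was not the same in CD4+ and CD11c+ cells, by a test of that difference in limma over all 30 arrays. Values are the CD4+ difference minus the CD11c+ difference on the log2 scale, and a negative value means that abatacept minus tolerised was lower in CD4+ cells. CD4+ cells came from different nodes in the 2 groups and CD11c+ cells from pooled organs. Sex-linked transcripts also split the CD4+ groups alone, with tolerised means of Eif2s3y at 8.89 in CD4+ and 2.62 in CD11c+ cells. Cell type, tissue and sex-linked transcripts therefore cannot be told apart in these values.

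The largest differences chosen by the rule for named genes included the sex-linked Eif2s3y (-6.20), Ssty2 (-5.09), Kdm5d (-4.70) and Xist (5.14), which split the CD4+ groups and not the CD11c+ groups. Tgm2 (-4.99) and the mast cell protease Mcpt1 (-4.35) followed. On the other side were Pxylp1 (3.05), the adenylyl cyclase Adcy6 (2.68), the actin-binding Cnn3 (2.58) and Slfn1 (2.56), a Schlafen gene of quiescent T cells. Adcy6 read 6.33, 6.31 and 6.47 in abatacept and 5.58, 5.79 and 5.77 in tolerised CD4+ arrays, and 5.17, 4.71 and 4.42 against 6.49, 6.98 and 6.89 in CD11c+ arrays.

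Of the named genes, others were called in both cell types with opposite signs. Lower in CD4+ and higher in CD11c+ cells were Maf (-4.16), Il1r1 (-3.27), C1qa (-3.20), C1qb (-2.67), Ebi3 (-2.59), Mertk (-2.54), P2rx7 (-2.31), Cd79b (-2.08), Lag3 (-1.69) and Insig1 (-0.98). P2rx7, a receptor for extracellular ATP, read 7.45, 7.37 and 7.42 against 8.92, 8.89 and 8.84 in CD4+ and 7.95, 7.98 and 7.96 against 7.02, 7.02 and 7.34 in CD11c+ arrays. Higher in CD4+ and lower in CD11c+ cells were Dapk1 (2.54), Cd3g (1.85), Klf2 (1.41) and Klf6 (0.78). Cd3g, a T cell marker, read 6.48, 6.08 and 5.88 in abatacept and 8.19, 7.52 and 7.60 in tolerised CD11c+ arrays. The part of T cells in the CD11c+ fraction was not tested.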

How the results depend on the processing

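On the 6 arrays of the 2 groups alone, 1107 genes were called between abatacept and tolerised arrays, 350 higher and 757 lower, with fewer arrays behind the estimate of the spread. After a further quantile normalization 1373 genes were higher, and 415 were higher in the contrast of the effects against each primed comparator. No filter, array weights, the mean of all probe sets and the replicate block left the counts of all 3 comparisons within 1.5 times their reported value, as did a filter on the 6 arrays and a fit without the unimmunised arrays, which were run for abatacept against tolerised only. Leaving out 1 array at a time gave between 1644 and 2725 calls, between 488 (without tolerised replicate 1) and 843 higher and between 1097 and 1882 lower. For the contrast of effects the ranges were 550 to 1233 calls, 167 to 380 higher and 383 to 853 lower, and for the difference between cell types 2536 to 3065 calls, 1026 to 1205 higher and 1489 to 1860 lower. With the replicate block 2281 genes were called, 735 higher and 1546 lower, 741 in the contrast of effects and 2920 in the difference between cell types. The labels do not say whether the replicate numbers mark a shared source. Of the named genes, Socs3, which was not called, turned to 0.0117 after quantile normalization and lay between -0.314 and 0.0697 with 1 array left out, and Nr4a1, also not called, lay between -0.426 and 0.025 with 1 array left out. In these the cause was not tested. Signal over background limits genes near the array medians, where differences are compressed, and 3 arrays a group limit the rest.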
